A study of Mus musculus with 9 samples.

Results

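The first 2 days of differentiation were examined in Dnmt1 knockout (1KO) embryonic stem cells (ESCs) by comparing the 1KO library of day 2 with the 1KO library of day 0. These were 2 of the 9 RNA-seq libraries of the study, and the comparison covered every entry of its tables, 15074 genes and 38385 single repeat copies. The measure was the difference in log2(FPKM + 1), where FPKM gives reads per kilobase of a feature, scaled to library size. The added 1 makes the differences of low genes smaller than their ratios.

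All lines derive from J1 mouse ESCs. The 1KO cells are Dnmt1-/-, WT cells are wild type, and 1KO+1CI cells are Dnmt1-/- cells that carry DNMT1C1229S, a catalytically inactive form of the enzyme expressed from a transgene. Every line was kept on mitomycin C-treated mouse embryonic fibroblast feeders with serum and LIF (day 0). For differentiation the feeders were reduced by adhesion to gelatin, and the cells formed embryoid bodies for 1 day and then grew as adherent cultures, in serum medium without LIF, a procedure by which the study obtained epiblast-like cells (EpiLCs). There was 1 library for each line and each of days 0, 2 and 4, which leaves every value without a replicate error, allows no test between 2 libraries and gives no p-value. WT and 1KO+1CI cells underwent the same procedure, and their own day 2 minus day 0 differences are set beside those of 1KO cells. Differences between the lines were not tested.

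DNMT1 copies the CpG methylation of the parent strand onto the new strand after DNA replication, and ESCs survive without it. Naive ESCs depend on LIF, which acts through STAT3, and hold transcription factors such as KLF4, TFCP2L1 and NANOG at high levels. When they leave this state they pass through a formative epiblast-like stage marked by OTX2, POU3F1 and FGF5, in which the de novo methyltransferases DNMT3A and DNMT3B are strongly expressed.

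The targeted gene was measured first. Dnmt1 (chromosome 9, 20907209-20959888) had 13.7 FPKM at day 0 and 17.4 FPKM at day 2 in 1KO cells, against 74.0 and 80.4 in WT cells. Transcript reads were thus still counted over the gene in 1KO cells, at a lower level than in WT cells on both days. In 1KO+1CI cells, where the reads of the transgene are included, 315 and 129 FPKM were measured. If the smallest step between FPKM values is 1 read, the 1KO libraries held about 28000000 counted reads at day 0 and 21000000 at day 2, and the 9 libraries between 20200000 and 28000000. Intervals given below are exact 95% binomial intervals on these reads and cover counting error only. They are too narrow if both reads of a pair were counted.

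Most genes differed little between the days. The median difference over the 15074 genes was 0.00, with quartiles of −0.24 and 0.24, and 11974 genes (79.4%) differed by less than 0.5. At or above +1 lay 209 genes (1.39%), and at or below −1 lay 500 genes (3.32%). In this text a gene rose or fell when it passed these limits of size, which are not limits of significance. After rescaling of each library to an equal total of gene FPKM, the counts were 294 and 408. Large falls outnumbered large rises, with 75 genes at or below −2 and 10 at or above +2.

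**Figure D1:**
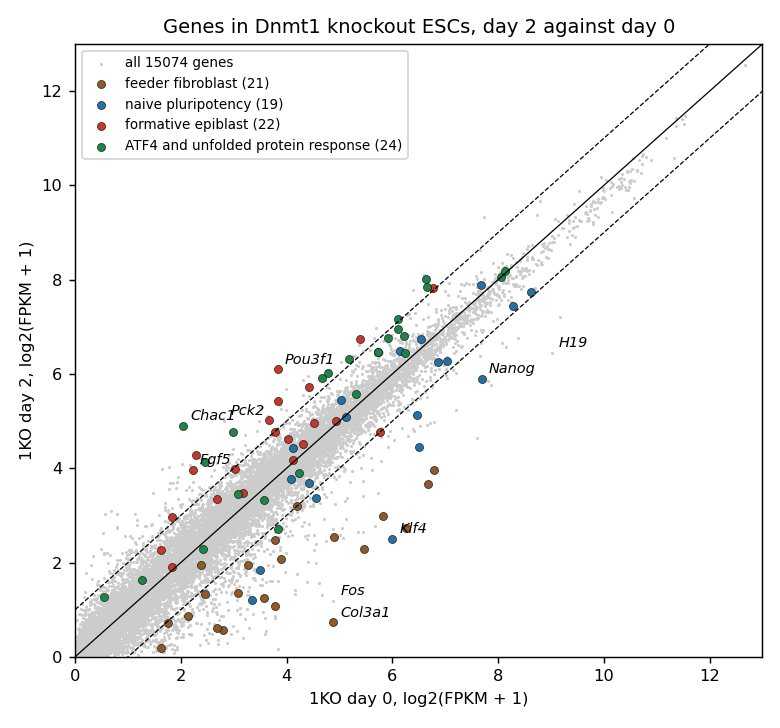
Each grey point is 1 of 15074 genes, with its log2(FPKM + 1) in the 1KO library of day 0 on the x axis and of day 2 on the y axis. The solid line marks equal levels and the dashed lines a difference of 1. The 21 feeder fibroblast genes lie below the solid line, and 9 of the 22 formative epiblast genes and 9 of the 24 ATF4 and unfolded protein response genes lie on or above the upper dashed line.

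Genes of the fibroblast feeders were present at day 0 and low at day 2. Of 21 fibroblast genes, 19 fell and 0 rose, with a median of −2.08, while 3.32% of all genes fell. Col3a1, a fibrillar collagen, had 28.4 FPKM at day 0 and 0.663 at day 2. Its difference of −4.14 was the deepest of all genes with at least 1 FPKM in either library. Col1a1 went from 76.0 to 5.63 FPKM, Col1a2 from 43.2 to 3.88, and Bgn, a matrix proteoglycan, from 101 to 11.7. The summed FPKM of the list was 554 at day 0 and 77.9 at day 2 in 1KO cells, 250 and 43.8 in WT cells, and 669 and 128 in 1KO+1CI cells. In a bulk sample, fewer cells of a type and less RNA per cell cannot be told apart. Among the 75 genes at or below −2, 11 belonged to this list, and 481 genes fell when the list was left out.

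Other lists with genes that fibroblasts express moved with this list, and the part of the feeders in their values was not tested. Over all genes, 3.32% fell. The lists share members, among them S100a4 (feeder and mesenchymal) and Sparc (mesenchymal and basement membrane). All 16 mesenchymal genes were lower at day 2 and 4 fell, including the intermediate filament gene Vim (285 to 94.1 FPKM, −1.59) and the cadherin gene Cdh11 (7.72 to 1.06, −2.08). Of 18 basement membrane and secreted endoderm genes, 6 fell, with Col4a2 lowest (25.2 to 6.59 FPKM, −1.79). Apoe, which encodes a lipid carrier, was the highest of that list, at 201 and 396 FPKM. Of 30 actin cytoskeleton and SRF-YAP target genes, 7 fell and 0 rose. Smooth muscle Actg2 had 403 reads at day 0 and 11 at day 2, an FPKM ratio of 0.0365 (interval 0.0180 to 0.0659).

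Of 20 LIF and STAT3 genes, which respond to or act in LIF signalling, 9 fell, 0 rose and 5 were higher at day 2, with a median of −0.82 (WT −0.75, 1KO+1CI −1.05). Over all genes, 3.32% fell. Fibroblasts also express some of these genes, 19 of the 21 feeder genes fell between the same libraries, and the part of the feeders was not tested. Socs3, the feedback inhibitor of the pathway, had 19.9 FPKM at day 0 and 2.01 at day 2 (−2.80). In WT cells it had 24.4 and 2.17. Bcl3, a nuclear cofactor of NF-kappaB, had 1196 and 75 reads, an FPKM ratio of 0.0837 (interval 0.0654 to 0.106). The receptor subunit gene Osmr fell by 1.62. Stat3 itself, named here after its values were seen, had a difference of −1.25 and ended at 9.95 FPKM. The LIF receptor gene Lifr stayed near its level, at 6.12 and 6.35 FPKM, and Myc was the highest of the list, at 26.0 and 42.3 FPKM. Fos and Fosb, immediate early genes of the AP-1 family, were among the deepest falls of the table. Fos had 28.5 and 1.29 FPKM (−3.69), and Fosb had 13.4 and 0.122 (−3.68).

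Klf4 (chromosome 4, 55527143-55532466), a naive pluripotency factor and a STAT3 target, stood at 63.1, 4.67 and 1.23 FPKM at days 0, 2 and 4 in 1KO cells. It rested on 5386 and 299 reads at the first 2 time points, an FPKM ratio of 0.0741 (interval 0.0657 to 0.0833). Its differences were −3.50 in 1KO, −3.18 in WT and −3.37 in 1KO+1CI cells. The naive list as a whole, with 19 genes, had 7 falls, 0 rises and a median of −0.75 in 1KO cells, where 3.32% of all genes fell. In 1KO+1CI cells 11 of the 19 fell and the median was −1.09. In WT cells 3 rose, 3 fell and the median was 0.08. Prdm14, a repressor of FGF signalling genes, had 668 and 71 reads in 1KO cells (ratio 0.142, interval 0.109 to 0.181). Dppa3, which encodes a protein that protects oocyte chromatin from DNA methylation changes, had 2048 and 356 reads (ratio 0.232, interval 0.207 to 0.260). Nanog had 205, 58.8 and 171 FPKM at days 0, 2 and 4 in 1KO cells, and 163, 89.5 and 56.8 in WT cells.

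Several naive factors that fell in 1KO cells did not pass −1 in WT cells. The part of the feeders in the values of the naive list was not tested. Their list sum at day 0 differed between the lines, at 554 FPKM in 1KO, 250 in WT and 669 in 1KO+1CI cells. Tbx3, a T-box factor, had 10.2 and 2.58 FPKM in 1KO cells (−1.65), and 4.27 and 5.27 in WT cells (0.25). Tfcp2l1, a factor downstream of LIF that was named after its values were seen, had 22.6 and 9.40 FPKM in 1KO cells (−1.18) and a difference of 0.26 in WT cells. Fbxo15 had a difference of −1.34 in 1KO cells and was also lower at day 2 in WT cells (92.1 to 57.3 FPKM, −0.67). Other members were lower in 1KO cells at day 2 without passing −1, and were also chosen after their values were seen. Esrrb had a difference of −0.61, Zfp42 of −0.86 and Klf2 of −0.75, while their WT differences were 0.06, 0.34 and −0.03. The highest member in 1KO cells was Fgf4, the autocrine ligand that drives exit from the naive state, at 31.8 and 42.7 FPKM.

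The core pluripotency genes were near their day 0 levels. Of 16 genes, 1 fell and 0 rose, with a median of 0.02, where 3.32% of all genes fell. Pou5f1, which encodes OCT4, had 808 and 759 FPKM, and Sox2 had 187 and 164. The gene that fell was Tfap2c, an AP-2 factor of the germline and trophoblast lineages, from 39.7 to 5.28 FPKM (−2.69). Dppa4 was the highest, at 70.2 and 102 FPKM.

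The formative epiblast genes went the other way. Of 22 genes, 9 rose, 0 fell and 21 were higher at day 2, with a median of 0.85, where 1.39% of all genes rose. Pou3f1 (chromosome 4, 124656807-124660655), a POU factor of the epiblast, had 13.2 FPKM at day 0 and 67.5 at day 2 (2.27). Sall2, a zinc-finger factor, had 3.87 and 18.4 FPKM (2.00). Fgf5 (chromosome 5, 98254184-98277030), an FGF ligand and a marker of the epiblast, had 3.66, 14.7 and 86.4 FPKM at days 0, 2 and 4. Otx2, which directs the step out of the naive state, had 13.3 and 41.9 FPKM (1.59). Grhl2, an epithelial transcription factor, and Pim2, a kinase, each had a difference of 1.35. The lowest gene was Tead2, a partner of YAP, at 53.1 and 26.1 FPKM.

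In WT cells the median of the same 22 genes was 0.09, with 5 rises and 4 falls, and in 1KO+1CI cells it was 0.83, with 10 rises and 0 falls. Pou3f1 had 14.5 and 21.7 FPKM in WT cells and 10.6 and 78.2 in 1KO+1CI cells. Sall2 had 9.34 and 8.05 FPKM in WT cells. Fgf5 went down in WT cells, from 6.97 to 2.52 FPKM (−1.18), before it reached 48.3 FPKM at day 4. The Dnmt1-/- lines with and without the inactive enzyme therefore both had the high day 2 level of Fgf5, 14.7 and 16.7 FPKM.

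**Figure D2:**
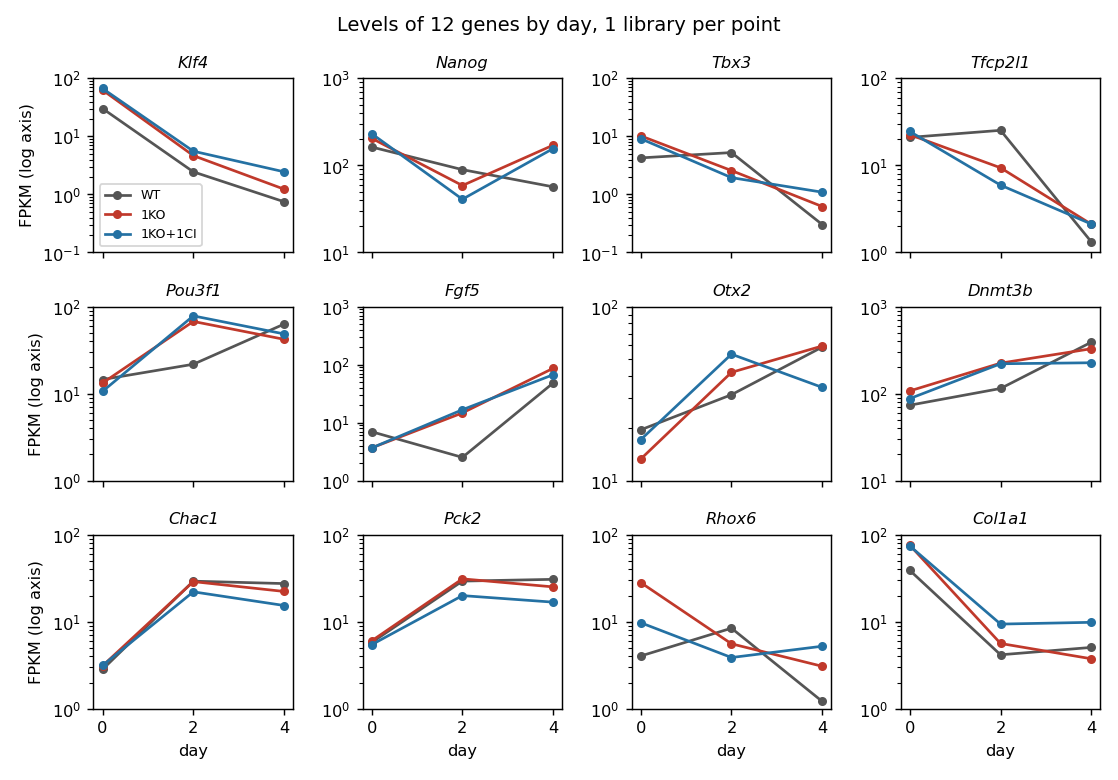
The FPKM of 12 genes is plotted on a log axis against day for WT, 1KO and 1KO+1CI cells, with 1 library per point and no error. At day 2 the 1KO and 1KO+1CI points of Tbx3 and Tfcp2l1 lie below the WT points and those of Pou3f1 and Fgf5 above them, while Chac1 and Col1a1 move the same way in the 3 lines.

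The de novo methyltransferase genes belonged to this group. Dnmt3a had 20.6 FPKM at day 0 and 51.8 at day 2 (1.29), and Dnmt3b had 107 and 224 (1.05). Both were also higher at day 2 in WT cells, where the differences were 0.93 and 0.63. Of 22 genes of the DNA methylation machinery, 2 rose and 1 fell, the last being Dppa3. Over all genes, 1.39% rose and 3.32% fell. Genes named after their values were seen included Uhrf1, the partner that brings DNMT1 to hemimethylated DNA, at 156 and 149 FPKM, and Tet1, a 5-methylcytosine oxidase, at 37.7 and 34.3. Dnmt3l, the cofactor of the de novo enzymes, had 203 and 286 FPKM in 1KO cells and 41.3 and 144 in WT cells.

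Signalling genes changed in part, where 1.39% of all genes rose and 3.32% fell. Of 24 genes of FGF-ERK signalling and feedback, 4 rose and 3 fell. The phosphatase genes Dusp6 (18.9 to 57.2 FPKM, 1.55) and Dusp4 (13.4 to 41.1, 1.55) and the inhibitor gene Spry4 (14.9 to 36.7, 1.25) rose. All are feedback targets of ERK, and they also rose in WT cells (1.44, 1.41 and 2.12). Fgf5 rose in 1KO cells and fell in WT cells (−1.18). The deepest fall of the list in 1KO cells was Fos (−3.69). Fgf8, a ligand of the primitive streak, had 3.62 and 1.03 FPKM (−1.18) and reached 84.5 FPKM at day 4. Of 19 Nodal and TGF-beta genes, 5 fell and 1 rose. The Nodal inhibitor genes Lefty1 (232 to 53.4 FPKM, −2.10) and Lefty2 (146 to 63.5, −1.19) were lower, and Skil, a SMAD corepressor gene, was higher (23.9 to 59.4, 1.28). Nodal itself had 32.1 and 40.1 FPKM. Id1 (25.5 to 58.9 FPKM) and Id2 (11.5 to 33.4), both BMP targets, rose by 1.18 and 1.46. Smad6 (5.15 to 1.17 FPKM) and Smad7 (25.9 to 9.42), which encode inhibitory SMADs, fell.

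Some genes of the germ layer lists passed the limits between days 0 and 2, where 1.39% of all genes rose and 3.32% fell. Of 12 primitive streak genes, 7 of which had at least 1 FPKM in either library, 0 rose and 2 fell. The 2 were Fgf8 and Sp5 (178 and 25 reads, ratio 0.187, interval 0.118 to 0.286). T had 1.27 FPKM at day 0 and 0.490 at day 2, and Mixl1 had 0.140 and 0.540. By day 4 they had 29.2 and 6.50 FPKM. Of 15 regulators and receptors of the primitive endoderm, 1 rose and 1 fell. Lrp2, an endocytic receptor, had 4.15 and 17.5 FPKM (1.85), against 11.6 and 12.7 in WT cells. Pdgfra, which is also expressed by fibroblasts, had 1.77 and 0.284. The endoderm factor genes Gata6, Gata4 and Sox17 stayed at or below 1.84 FPKM on both days. Neurod1, a neural factor gene, rose from 2.27 to 8.55 FPKM (1.55), as it did in WT cells (2.46 to 9.55). The other 10 neural genes did not rise, and Ncam1 fell from 2.62 to 0.738 FPKM. Among 15 trophoblast genes, Krt7 (11.3 to 2.02 FPKM) and Wnt7b (8.82 to 1.79) fell and 0 rose.

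The gene with the largest rise belonged to the amino acid stress programme controlled by ATF4, a transcription factor made under nutrient and endoplasmic reticulum stress. Chac1, which encodes an enzyme that degrades glutathione, had 3.11, 28.9 and 22.3 FPKM at days 0, 2 and 4 (day 2 minus day 0, 2.86). Of 24 ATF4 and unfolded protein response genes, 9 rose and 1 fell, with a median of 0.73, where 1.39% of all genes rose and 3.32% fell. The medians in WT and 1KO+1CI cells were 0.74 and 0.73. The genes that rose were Chac1, the pseudokinase gene Trib3 (6.94 to 26.2 FPKM), Herpud1 (4.48 to 16.5), Atf4 itself (98.6 to 259), Ddit4 (24.5 to 58.9), Sesn2 (26.7 to 63.6), and the amino acid and folate enzyme genes Psat1, Mthfd2 and Asns. The endoplasmic reticulum chaperone gene Hspa5 had 266 and 263 FPKM, and Ddit3, which encodes CHOP, had 7.42 and 10.0. Cebpb was the 1 gene that fell (13.2 to 5.55 FPKM, −1.12), and its WT difference was −0.17. Outside the list, Pck2, the mitochondrial enzyme that makes phosphoenolpyruvate, had 6.03 and 31.1 FPKM (2.19). The hormone gene Adm2 had 16 and 140 reads (ratio 11.7, interval 6.95 to 21.0).

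The sequences before the starts of 4 of these genes are shown because the genes rose together and share a match to TGATGNAA, the letters of the composite element that ATF4 and C/EBP proteins bind. The 250 bases before the RefSeq start (GRCm38.p6) are printed 5′ to 3′ on the strand of the gene, with the match on either strand in capitals.
Chac1 (+ strand, chr2:119350992-119351241): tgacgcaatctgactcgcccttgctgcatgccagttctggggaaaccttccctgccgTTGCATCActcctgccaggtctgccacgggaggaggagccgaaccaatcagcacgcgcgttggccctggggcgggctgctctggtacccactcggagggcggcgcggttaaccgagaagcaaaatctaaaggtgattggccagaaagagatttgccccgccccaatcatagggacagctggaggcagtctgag
Herpud1 (+ strand, chr8:94386179-94386428): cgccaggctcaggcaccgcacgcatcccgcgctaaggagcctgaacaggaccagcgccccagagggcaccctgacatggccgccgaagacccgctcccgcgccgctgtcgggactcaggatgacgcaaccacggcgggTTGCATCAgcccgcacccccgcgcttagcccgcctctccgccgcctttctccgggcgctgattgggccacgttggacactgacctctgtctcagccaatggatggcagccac
Asns (- strand, chr6:7693210-7693459): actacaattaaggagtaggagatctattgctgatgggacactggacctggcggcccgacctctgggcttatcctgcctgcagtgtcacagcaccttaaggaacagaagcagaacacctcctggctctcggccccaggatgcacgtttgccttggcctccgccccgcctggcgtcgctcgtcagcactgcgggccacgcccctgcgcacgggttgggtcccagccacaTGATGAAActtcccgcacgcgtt
Pck2 (+ strand, chr14:55540016-55540265): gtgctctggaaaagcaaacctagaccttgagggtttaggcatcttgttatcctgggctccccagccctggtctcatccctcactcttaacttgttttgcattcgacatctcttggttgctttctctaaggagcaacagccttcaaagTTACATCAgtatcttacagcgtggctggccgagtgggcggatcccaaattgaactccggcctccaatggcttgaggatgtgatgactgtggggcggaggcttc
The match was TTGCATCA in Chac1 and Herpud1, TGATGAAA in Asns and TTACATCA in Pck2. The motif was chosen after the values were seen. Among the 21 list genes with a RefSeq sequence, 5 held it, namely 3 of the 9 that rose and 2 of the 12 others, Atf3 and Slc7a11. Among 32851 such windows of the genome, each start being counted singly, 3.45% held it. A list gene counted if any of its starts held the motif. The list was built around ATF4 and the unfolded protein response, so these shares do not test enrichment. A match describes letters in this window and not a bound site.

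Of the other genes with the largest rises, Enpp2, which encodes the lysophospholipase autotaxin, had 2.14 and 14.7 FPKM (2.32). WT cells had 2.61 and 6.55 FPKM, whereas 1KO+1CI cells had 1.59 and 17.3 FPKM. Gstt2, a glutathione transferase gene, had 3.08 and 16.0 FPKM, and Ccdc194 had 38 and 274 reads (ratio 9.62, interval 6.84 to 13.9). A930024E05Rik had 0.603 and 7.59 FPKM (ratio 12.6, interval 8.74 to 18.8). It is annotated as antisense, and since the strand setting of the counts is not given, its reads cannot be told apart from those of a gene on the other strand. Of the other deepest falls, Calcoco2, an autophagy receptor gene, had 24.5 and 1.48 FPKM in 1KO cells (−3.36) and a difference of −0.83 in WT cells. The fibroblast matrix genes Lox (43.9 to 4.00 FPKM) and Col8a1 (1618 and 50 reads) completed this group.

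Loci of microRNAs were also among the largest rises, on few reads. The libraries were made from polyadenylated RNA, so these reads are not counts of mature microRNAs. Which transcripts the reads come from was not examined. Of 123 loci, 14 rose and 12 fell, with a median of −0.03, where 1.39% of all genes rose and 3.32% fell. Mir363 (chromosome X) had 5 reads at day 0 and 24 at day 2 (ratio 6.41, interval 2.40 to 21.5), and the WT FPKM was 2.61 and 18.3. Mir410 in the imprinted Dlk1-Meg3 region had 4 and 17 reads (ratio 5.67, interval 1.85 to 23.2). Mir7068 had 1 and 11 reads, and its ratio of 14.7 has an interval from 2.13 to 632. In the miR-290 cluster, the main microRNA cluster of ESCs, Mir295 had 5 and 17 reads (ratio 4.54, interval 1.61 to 15.7). The intervals of the other 7 loci of the cluster all include 1. These intervals cover counting error only and are no test of a change between the days. Mir363, Mir410 and Mir7068 were named for the size of their rise, which their intervals do not take into account. Mir675 fell from 451 to 42 reads (ratio 0.124, interval 0.0884 to 0.171). It lies within H19, which fell from 516 to 86.7 FPKM, so the counts of the pair are not independent.

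The mature sequences of these loci are given for reference, from RefSeq (GRCm38.p6), with the seed (bases 2 to 8) in capitals. The 3p arms of miR-291a, miR-294 and miR-295 share the seed AAGUGCU. The day 2 minus day 0 differences of their loci were −0.56, 0.12 and 1.83, on 7 and 3, 17 and 14, and 5 and 17 reads, and the intervals of their ratios overlap.
miR-291a-3p (chr7:3218968-3218989, + strand): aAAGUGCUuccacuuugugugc
miR-294-3p (chr7:3220691-3220712, + strand): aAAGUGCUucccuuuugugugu
miR-295-3p (chr7:3220815-3220837, + strand): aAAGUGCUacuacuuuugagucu
miR-363-3p (chrX:52741697-52741718, - strand): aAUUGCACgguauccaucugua
miR-410-3p (chr12:109743764-109743784, + strand): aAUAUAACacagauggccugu
miR-675-5p (chr7:142577112-142577133, - strand): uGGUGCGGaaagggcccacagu
The seeds of the last 3 differ from each other and from that of the miR-290 cluster members shown.

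Of 40 germline genes, many of which carry methylated CpG islands, 0 rose and 1 fell, with a median of 0.05. Over all genes, 1.39% rose and 3.32% fell. Dazl, an RNA-binding germ cell factor gene named after its values were seen, had 9.77 and 10.0 FPKM in 1KO cells, against 1.93 and 2.30 in WT cells. The gene that fell was Nanos3 (4.65 to 0.939 FPKM, −1.54). On the X chromosome, 3 of 5 homeobox genes of the Rhox cluster fell, with a median of −1.64. Rhox6 had 28.2 and 5.58 FPKM, Rhox5 had 91.5 and 28.7, and Rhox9 had 491 and 86 reads (ratio 0.234, interval 0.184 to 0.294). In WT cells these genes began lower, with Rhox6 at 4.04 and 8.44 FPKM and Rhox9 at 4.13 and 8.74. At day 2 the WT levels of these 3 genes were above those of 1KO cells. Rhox1 had 3.62 and 3.80 FPKM in 1KO cells and 0.276 and 0.796 in WT cells.

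Imprinted genes moved in both directions, where 1.39% of all genes rose and 3.32% fell. Of 14 maternally expressed genes, 1 fell, the noncoding RNA gene H19 (516 to 86.7 FPKM, −2.56). Of 25 paternally expressed genes, 3 rose and 2 fell. Igf2, the growth factor gene beside H19, had 22.0 and 3.78 FPKM (−2.26), and both genes also fell in WT cells (−2.79 for H19 and −2.05 for Igf2). H19 and Igf2 are both expressed by embryonic fibroblasts, and the part of the feeders, whose list sum went from 554 to 77.9 FPKM, was not tested. Nnat, a neuronal membrane protein gene, had 10.3 and 37.9 FPKM (1.78) and in WT cells 10.6 and 8.28 (−0.32). Magel2 had 0.947 and 3.67 FPKM, and Mkrn3 had 73 and 190 reads (ratio 3.47, interval 2.64 to 4.62).

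Genes of the 2-cell stage, which a small share of ESCs expresses at a time, were lower at day 2. Of 16 genes, 5 fell and 0 rose, where 3.32% of all genes fell, and 7 had at least 1 FPKM in either library. The list median was −0.64 in 1KO, −0.63 in WT and −0.72 in 1KO+1CI cells. Zscan4c had 154 and 9 reads (ratio 0.0779, interval 0.0350 to 0.152) and Zscan4a 158 and 10 (ratio 0.0846, interval 0.0397 to 0.160). Zscan4d had 4.14, 0.191 and 3.15 FPKM at days 0, 2 and 4. Paralogs of this cluster share sequence, and reads may have been split between them.

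**Figure D3:**
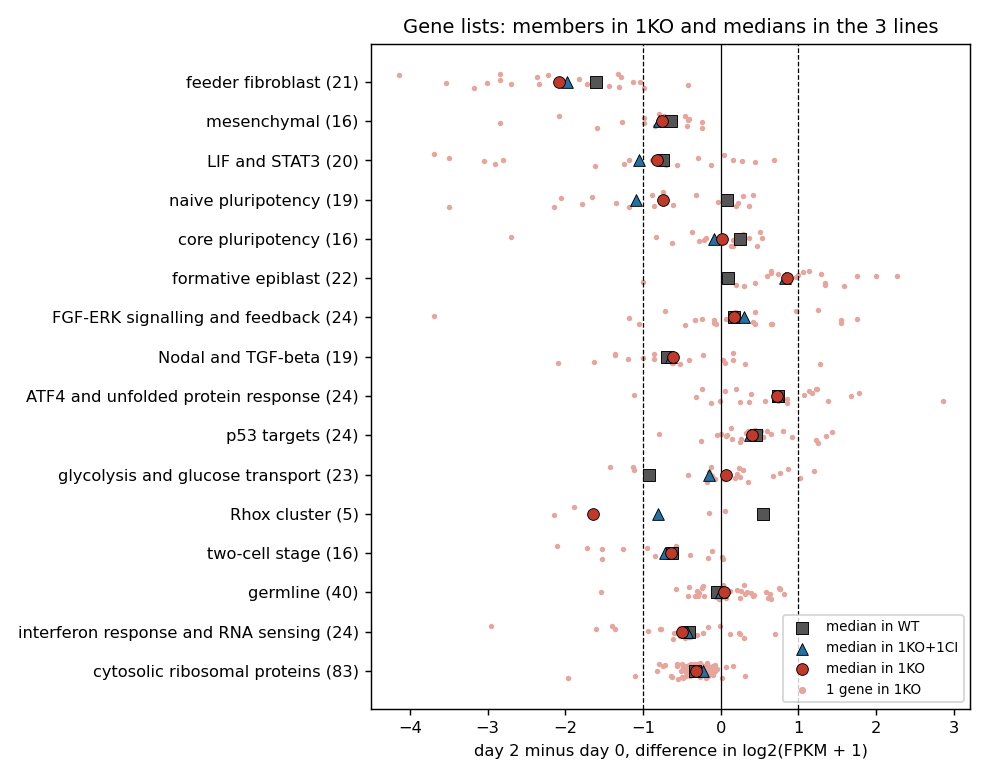
Each pale point is the day 2 minus day 0 difference in log2(FPKM + 1) of 1 gene in 1KO cells, for 16 gene lists with the number of genes in brackets. Large symbols give the list medians in 1KO (circle), 1KO+1CI (triangle) and WT cells (square), and the dashed lines mark −1 and +1. The WT median lies away from the 1KO median for the naive, formative, glycolysis and Rhox lists and close to it for the ATF4 and LIF lists.

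The medians of the housekeeping and metabolic lists given here lay between −0.31 and 0.07 in 1KO cells, while single genes passed the limits. Over all genes, 1.39% rose and 3.32% fell. Of 23 genes of glycolysis and glucose transport, 2 rose and 3 fell, with a median of 0.07, while in WT cells 11 fell and the median was −0.93. Ldha and Pgk1, named after their values were seen, had 633 and 664 FPKM and 481 and 358 FPKM in 1KO cells. In WT cells Ldha had 862 and 222 FPKM and Pgk1 853 and 206. Slc2a3, a glucose transporter gene, fell in both lines (269 to 99.7 FPKM in 1KO and 467 to 156 in WT cells). Gapdh had a difference of 1.20, but it has many processed pseudogenes that share its reads and its value is uncertain. Cholesterol synthesis genes had a median of −0.15, with 0 of 24 past 1 in either direction, and a median of −0.65 in WT cells. Of 83 cytosolic ribosomal protein genes, 79 were lower and 2 fell, with a median of −0.31. Of the genes that fell, Rpl17 went from 574 to 146 FPKM in 1KO cells and from 204 to 397 in 1KO+1CI cells, and it also has pseudogene copies. Of 79 oxidative phosphorylation genes, 62 were lower and 1 fell.

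Stress and defence lists gave further values, to be read beside the 1.39% of all genes that rose and the 3.32% that fell. Of 24 p53 targets, 4 rose and 0 fell, with a median of 0.40, and Gdf15, a stress cytokine gene, had 1.53 and 5.80 FPKM. Of 24 interferon response and RNA sensing genes, 0 rose and 4 fell. Isg15, a ubiquitin-like modifier gene, had 268 and 12 reads (ratio 0.0598, interval 0.0305 to 0.106), and it also fell in WT cells (−3.12). The part of the feeders in the interferon falls was not tested. Of 39 replication-dependent histone genes, whose transcripts mostly lack poly(A) tails, 8 fell and 1 rose. Of 61 small nucleolar and Cajal RNA loci, 6 fell and 0 rose. All 81 Zfp genes numbered 800 and over stayed within 1, 70 of them being higher at day 2, with a median of 0.37. Among 28 heterochromatin genes that repress retroviruses, 1 rose, the HUSH complex gene Pphln1 (13.2 to 27.7 FPKM). Trim28, which encodes the KAP1 corepressor, had 679 and 548 FPKM, and Setdb1 had 34.2 and 32.0.

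The 1KO changes were set beside those of the other lines, with which they share no library. Of the 209 genes that rose in 1KO cells, 120 also rose in 1KO+1CI cells (57.4% of the 1KO genes), where 273 genes (1.81%) rose in all, and 91 in WT cells (43.5%, and 27.7% of the 329 of that line, which are 2.18% of all genes). Of the 500 that fell, 338 fell in 1KO+1CI cells (67.6% of the 500 in each line, again 3.32% of all genes) and 189 in WT cells (37.8%, and 32.4% of the 584 of that line, which are 3.87%). Past 1 in the opposite direction in WT cells were 4 of the genes that rose and 4 of those that fell, and in 1KO+1CI cells 0 and 1. Across genes, which are not independent replicates, the differences of 1KO cells were set against those of each other line. Pearson r was 0.794 with 1KO+1CI cells and 0.559 with WT cells. The feeder list was lower at day 2 in every line, with medians of −2.08 in 1KO, −1.60 in WT and −1.97 in 1KO+1CI cells. The part of the feeders in these overlaps and correlations was not tested.

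Repeat copies were counted in a table of their own. Of 38385 copies, 3217 (8.38%) rose and 1385 (3.61%) fell, with a median of 0.19. Medians in WT and 1KO+1CI cells were 0.12 each. The direction of this majority depended on the scaling. When libraries were scaled by the median ratio of the copies themselves, which lowers every copy and brings the median to 0.01, 1500 copies rose and 2702 fell. Copies of low FPKM are lowered less by this scaling because of the added 1. The scaling factor of the copies was 1.19 in each of the 3 day 2 libraries and between 0.918 and 1.03 in the day 0 libraries, while that of genes stayed between 0.982 and 1.02. By class, LINE copies had a median of 0.34, SINE copies 0.16, LTR copies 0.15 and satellite copies 0.52. Copies of a family can share reads, how such reads were assigned is not given, and the number of copies is not a number of replicates.

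The tally of families depended on the scaling as well. Of 371 families with at least 10 copies, 58 had a median below 0 in the deposited FPKM and 186 after scaling by the copies. A median at or below −0.5 was found in 7 families and, after that scaling, in 17, and a median at or above 0.5 in 22 and 4. All 7 of the low families in the deposited FPKM are LTR retroelements. MMVL30-int, the internal part of the VL30 retroelement, had a mean of 10.9 FPKM over 38 copies at day 0 and 1.63 at day 2, with a median difference of −1.51, and 26 copies fell. The family RLTR6_Mm, its LTR, had a median of −1.34. Both were also lower in WT cells (−1.07 and −0.81) and in 1KO+1CI cells (−1.37 and −1.35). They moved with the fibroblast list, and the part of the feeders was not tested.

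MERVL-int and its LTR MT2_Mm, the retrovirus of the 2-cell stage, were lower at day 2 than at day 0 in the lines without active DNMT1. In 1KO cells the mean of the 169 MERVL-int copies was 1.99, 0.760 and 3.23 FPKM at days 0, 2 and 4. The median difference was −0.75, with 167 copies lower and 42 past −1. In WT cells the mean was 1.12 and 1.08 FPKM and the median difference −0.05. In 1KO+1CI cells the mean was 2.64 and 0.872 FPKM and the median −0.95. The day 0 means of the 1KO and 1KO+1CI lines were above that of WT cells, so the changes go with different day 0 levels. MT2_Mm (145 copies) had medians of −0.58, 0.02 and −0.63 in the same order of 1KO, WT and 1KO+1CI.

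IAP elements are endogenous retroviruses that DNA methylation keeps silent in differentiated cells. Of 8 IAP families with at least 10 copies, 5 had a median below 0 in 1KO cells, and the 3 at or below −0.5 were IAPEz-int and a pair of LTR families. The mean of the 426 IAPEz-int copies was 7.14, 4.70 and 17.1 FPKM at days 0, 2 and 4. Over copies the lowest, median and highest values were 0.425, 7.12 and 17.5 FPKM at day 0 and 0.166, 4.53 and 14.4 at day 2. The median difference was −0.54, with 402 copies lower and 24 higher, and 10 copies passed −1. In 1KO+1CI cells the mean went from 2.26 to 4.62 FPKM, with a median of 0.77 and 425 copies higher. The day 2 means of these lines were 4.70 and 4.62 FPKM, so the opposite directions go with different day 0 levels. In WT cells the mean was 0.727 and 0.792 FPKM. The LTRs IAPLTR1_Mm (76 copies, median −0.58) and IAPLTR1a_Mm (25 copies, −0.62) were likewise lower in 1KO cells and higher in 1KO+1CI cells (0.79 and 0.51). The medians of IAPLTR2_Mm (0.19 over 21 copies), IAPEY3-int (0.28 over 13 copies) and IAPEY4_I-int (0.06 over 20 copies) were above 0 in 1KO cells.

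**Figure D4:**
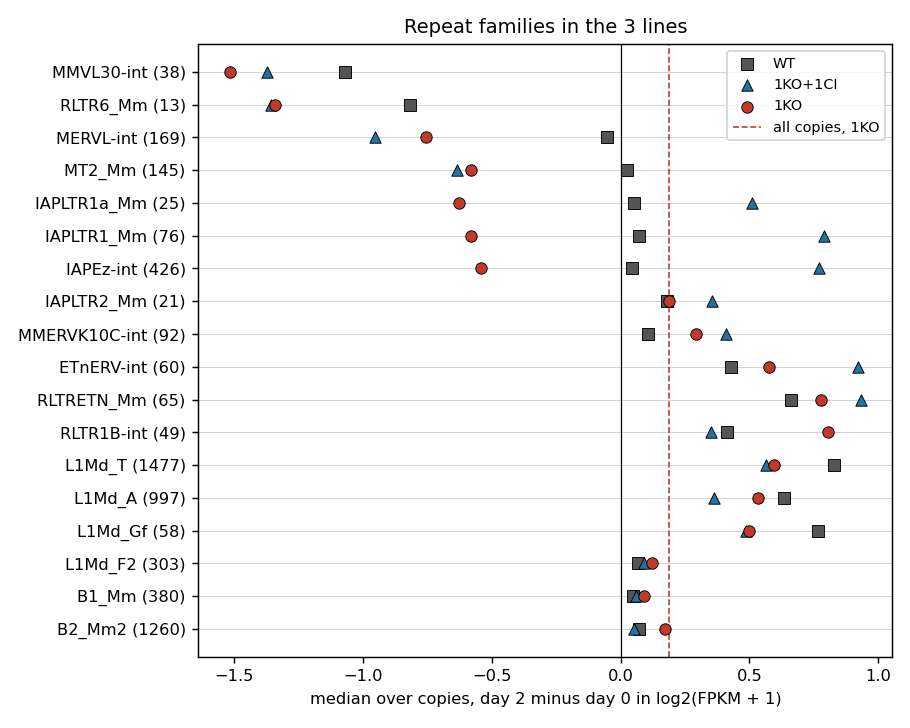
The median over copies of the day 2 minus day 0 difference in log2(FPKM + 1) is shown for 18 families, with the number of copies in brackets, in WT (square), 1KO (circle) and 1KO+1CI cells (triangle). The dashed line is the 1KO median of all copies. IAPEz-int and its LTRs lie below 0 in 1KO cells and above 0 in 1KO+1CI cells.

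Young LINE1 elements were higher at day 2 in every line. L1Md_T had a mean of 0.340 FPKM over 1477 copies at day 0 and 1.10 at day 2 in 1KO cells, with 1455 copies higher, 134 past +1 and a median of 0.59. The WT and 1KO+1CI medians were 0.83 and 0.56. L1Md_A (997 copies, 0.53) and L1Md_Gf (58 copies, 0.50) showed the same direction, and L1Md_F2, an older subfamily of 303 copies, had 0.12. By day 4 the mean of L1Md_T was 0.441 FPKM. Among LTR elements of the ERVK group, ETnERV-int had a mean of 19.6 and 32.0 FPKM and a median of 0.57. The families with the largest medians were RMER15-int (0.85, 13 copies), RLTR1B-int (0.80, 49 copies) and the simple repeat (TCCC)n (0.78, 11 copies). RLTR1B-int continued from 14.3 FPKM at day 2 to 34.3 at day 4. SINE families stayed near the median of all copies, with B1_Mm at 0.09 and B2_Mm2 at 0.17. The major satellite GSAT_MM had 2 listed copies, with a mean of 0.486 and 1.49 FPKM.

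**Figure D5:**
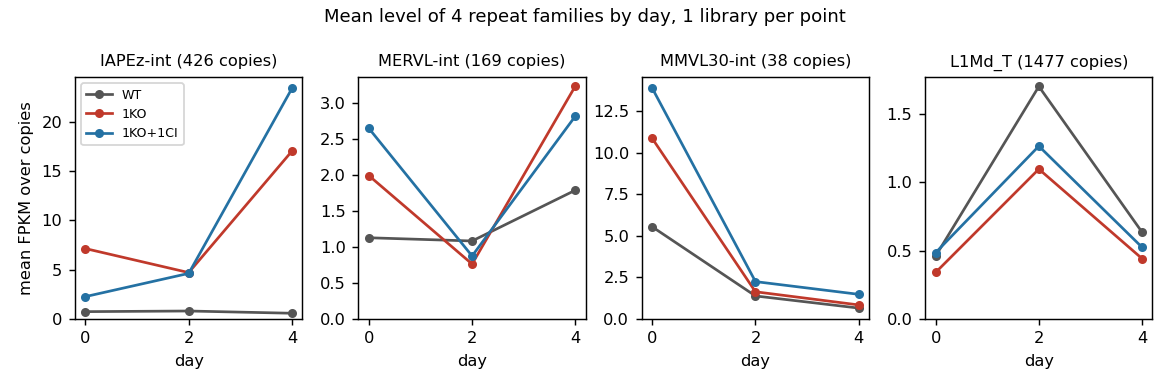
The mean FPKM over copies is plotted against day for 4 repeat families in WT, 1KO and 1KO+1CI cells, with 1 library per point and no error. IAPEz-int and MERVL-int are lower at day 2 than at days 0 and 4 in 1KO cells, MMVL30-int is lower at day 2 in the 3 lines, and L1Md_T is highest at day 2 in the 3 lines.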

How the data were processed

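RNA was measured in 9 libraries of mouse ESCs, 1 per line and day, made from poly(A)-selected RNA. The authors used Trim Galore for trimming, HISAT2 for mapping to mm10, SAMtools, and analyzeRepeats.pl of HOMER for counting and normalization. The deposited values are FPKM per gene and per repeat copy. Tool versions, strandedness and the treatment of multi-mapping reads were not stated in the sources used here.

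From 15095 gene entries, 21 were left out (1 named 0 and 20 dates). Neither table holds a value of 0. Differences were computed from the deposited FPKM as log2(FPKM + 1) at day 2 minus day 0. Without replicates no test was run. Relative depth was recovered from the spacing of low FPKM values, and absolute depth from 304 of 795 genes with 1 transcript in GENCODE M21 (GRCm38), which also gave positions. A separate search of the spacing in each library alone gave depths within 0.476% of these. Read counts are printed where the implied length matched a transcript. Intervals are exact binomial (95%).

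The members and lists were chosen with earlier results of these data known. Named genes are the 12 largest rises and deepest falls with at least 1 FPKM in either library, up to 6 members past 1 per list with its highest and lowest, Dnmt1, and the miR-290 cluster. Named families are a list of 60 and the 3 largest and deepest medians with at least 10 copies. Further names were chosen after their values were seen. One gene of the rule is not reported here. Of the 60, IAPLTR3 and SYNREP_MM had no copy to analyse here. Of 123 microRNA loci, 112 matched a RefSeq sequence.

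Alternatives were pseudocounts of 0.1 and 0.01, a common gene sum (TPM), median-ratio scaling, a minimum of 1 FPKM, the mean over list members and, for repeats, log2 of the mean over copies. Counting by size and the depth recovery were tested on simulated data. Python 3.11.15, numpy 2.4.6, pandas 2.3.3, scipy 1.17.1 and matplotlib 3.10.9 were used.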

Additional observations from a re-analysis of the deposited data

Results flagged for a closer look

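Opposite directions between days 0 and 2 in 1KO cells and another line were looked for with limits of size in both lines, 1 for the genes named by rule and 0.5 for the medians of gene lists and of repeat families with at least 10 copies. These limits were passed in 5 cases, and genes with smaller opposite differences are not listed. Each rests on 1 library per day, and none of these differences was tested. Fgf5 had a difference of 1.75 in 1KO cells and −1.18 in WT cells. The median over the Rhox cluster was −1.64 in 1KO cells and 0.55 in WT cells, where Rhox5, at −0.45, did not share the direction of the median. The median of IAPEz-int was −0.54 in 1KO cells and 0.77 in 1KO+1CI cells. For IAPLTR1_Mm these medians were −0.58 and 0.79, and for IAPLTR1a_Mm −0.62 and 0.51. No group holds enough samples to look for an outlying sample.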

How the results depend on the processing

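No paired analysis was possible because each condition has 1 library and the labels give no replicate numbers, and for the same reason no replicate could be left out. The lists of naive, formative, LIF, feeder, ATF4 and Rhox genes kept the direction of their medians under all 6 alternatives, with ranges of −0.86 to −0.64, 0.84 to 0.96, −1.14 to −0.71, −2.92 to −2.01, 0.70 to 0.81 and −1.67 to −1.16. Counts of genes and copies depended on the pseudocount. With 0.1, 695 genes rose and 1132 fell, and with 0.01 the counts were 933 and 1380. For copies they were 9648 and 3551 with 0.1 and 10368 and 4095 with 0.01. Scaling by the repeat copies gave 1500 and 2702 copies and an IAPEz-int median of −0.84. The 2-cell list median was −2.14 with a pseudocount of 0.1, −2.67 with 0.01 and −1.52 over members with at least 1 FPKM. MMVL30-int was at −2.33 with 0.01, MERVL-int at −1.35 with 0.1 and −1.47 with 0.01, and L1Md_T at 1.42 and 1.68. These low values are the ones the added constant shrinks most.

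Reversals were few among gene lists and named genes, but many repeat families changed sign with the scaling. The mean over maternally expressed imprinted genes was −0.087. With scaling by the repeat copies, families with a median below 0 went from 58 to 186 of 371. The named families given next all had a reported median of at least 0.1 in size. Sign changes of smaller medians are not listed. Scaling by the repeat copies turned IAPLTR2_Mm (−0.021), IAPLTR2b (−0.14), MT2B (−0.02), B1_Mus1 (−0.092), B1_Mus2 (−0.049), B2_Mm1t (−0.036), B4 (−0.12), PB1D10 (−0.11) and MIR (−0.014) below 0. IAPLTR2a was at 0.091 over copies of at least 1 FPKM and at 0.066 by the mean over copies, and RLTR6-int was at 0.019 over copies of at least 1 FPKM. Of 704 values for named genes, 649 stayed within 0.1 or 1.5 times of the reported difference and none reversed. Leaving out the feeder list, an alternative chosen after the data were seen, gave 209 and 481 genes. Without replicates, no difference here can be set against the variation between cultures.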
